A study of Mus musculus with 9 samples.

Results

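The genes described are 10 Kruppel-like factors, Klf2, Klf3, Klf4, Klf5, Klf6, Klf7, Klf9, Klf10, Klf13 and Klf15, followed across cells with unmodified, lowered and raised Zbtb46. They were chosen by symbol from a count table of 55487 genes, which holds all 10. Enough counts for a test were found for 9 of them, among 16955 genes tested, and Klf15 was too weakly expressed. The cells were MCEC, an established endothelial line from mouse heart, and Zbtb46 encodes a transcription factor with a BTB domain and zinc fingers. Poly-A RNA was sequenced in 9 libraries that form 3 groups of 3: WT (unmodified MCEC), KD (MCEC with Zbtb46 knocked down) and OE (MCEC with enforced expression of Zbtb46). The labels name no other allele, agent or time, and they do not say by which construct or in how many clones Zbtb46 was changed. Cells given a control vector were not analysed here. Nothing in the labels says that the 3 libraries of a group came from separate cultures, so the p-values measure the spread between these libraries, which may be technical.

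Kruppel-like factors are transcription factors that bind GC-rich and CACCC sequences through a tandem of zinc fingers at their carboxy terminus. Outside the zinc fingers they differ, and with that in the partners they recruit. Klf2, Klf4, Klf5, Klf6 and Klf7 belong to a branch that mostly activates genes through acetyltransferases, Klf3 recruits the corepressor CtBP, and Klf9, Klf10 and Klf13 recruit the corepressor Sin3A. In endothelium, Klf2 and Klf4 are best known as genes induced by steady laminar flow through the kinase cascade that ends in Erk5 (Mapk7) and the Mef2 factors, and as drivers of an anti-inflammatory and anti-thrombotic programme.

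To show the kind of promoter these genes have, the 250 bases before the RefSeq gene start (GRCm38.p6) are given for Klf4 and Klf6, which rose in KD, for Klf9, which rose in OE, and for Klf2, which passed no test. They are written 5′ to 3′ on the gene's strand. Capitals mark every match on either strand to the CACCC box (CACCC, or GGGTG on the other strand), the GC box (GGGCGG or CCGCCC), the TATA box TATAAA and the Mef2-type motif CTANNNNTAG, and matches may overlap. The windows of Klf2 and Klf6 run past the start that GENCODE gives, and the CACCC match of Klf2 lies inside the gene as GENCODE draws it.
Klf4 promoter, chr4:55532476-55532725, minus strand: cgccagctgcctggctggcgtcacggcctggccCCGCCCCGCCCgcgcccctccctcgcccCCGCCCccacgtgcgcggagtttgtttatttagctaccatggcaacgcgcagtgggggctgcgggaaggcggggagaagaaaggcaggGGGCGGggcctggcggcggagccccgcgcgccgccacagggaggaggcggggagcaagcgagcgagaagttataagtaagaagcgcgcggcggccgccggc
Klf6 promoter, chr13:5861239-5861488, plus strand: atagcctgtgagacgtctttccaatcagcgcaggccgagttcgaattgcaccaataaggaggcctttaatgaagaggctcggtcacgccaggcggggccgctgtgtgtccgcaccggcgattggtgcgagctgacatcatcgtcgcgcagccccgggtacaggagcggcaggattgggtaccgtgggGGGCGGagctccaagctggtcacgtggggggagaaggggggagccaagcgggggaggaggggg
Klf9 promoter, chr19:23140976-23141225, plus strand: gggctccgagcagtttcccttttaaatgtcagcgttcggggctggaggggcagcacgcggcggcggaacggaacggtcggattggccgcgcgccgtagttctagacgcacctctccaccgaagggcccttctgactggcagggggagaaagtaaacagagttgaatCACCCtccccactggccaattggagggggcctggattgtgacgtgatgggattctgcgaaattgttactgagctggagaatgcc
Klf2 promoter, chr8:72318812-72319061, plus strand: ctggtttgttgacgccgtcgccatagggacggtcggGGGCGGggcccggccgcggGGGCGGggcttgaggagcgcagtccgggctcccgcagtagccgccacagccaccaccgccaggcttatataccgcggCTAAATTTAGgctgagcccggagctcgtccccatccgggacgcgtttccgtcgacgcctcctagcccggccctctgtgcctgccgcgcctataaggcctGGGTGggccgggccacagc

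The Klf4 window held 4 GC boxes and no CACCC box, the Klf6 window 1 GC box, 63 bases before the start, and the Klf9 window 1 CACCC box, 84 bases before it. In the Klf2 window there were 2 GC boxes, 1 CACCC box and a Mef2-type match, CTAAATTTAG, 118 bases before the start. RefSeq windows were found for 8 of the 10 members, with Klf5 and Klf10 unmatched. Against GENCODE, the Klf3 window lies partly and the Klf7 window wholly inside the gene. A GC box lay in 7 of these 8, against 32.7% of 32851 promoter windows of the same length, and a CACCC box in 6 of 8, against 52%. TATAAA was in 0 of 8, against 12.4% of all windows, and the Mef2-type motif in 1 of 8, against 3.2%. The windows of Klf4, Klf2, Klf6 and Klf9 had 74%, 71.2%, 64.8% and 59.6% of G and C, above the median of 52.4% over all windows. These matches describe letters only.

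The libraries held 39491828 to 55745849 counts, on average 4.61e+07 ± 8.55e+06 (SD, n = 3) for WT, 4.64e+07 ± 5.15e+06 for KD and 4.81e+07 ± 1.86e+06 for OE. Ribosomal RNA took 7.44% to 17.3% of the counts in WT, 9.55% to 12.0% in KD and 14.4% to 18.2% in OE. The targeted gene, Zbtb46 (chr2:181387762-181459426), stood at 13.7 ± 0.623 CPM in WT (CPM: counts scaled for library size, here with TMM factors), 11.2 ± 0.537 in KD and 191 ± 2.67 in OE, so the knockdown libraries kept most of the Zbtb46 mRNA. Its log2 fold change against WT was -0.28 (SE 0.055) in KD and 3.81 (SE 0.039) in OE, with adjusted p of 0.00144 and 3.22e-21 (edgeR quasi-likelihood test, Benjamini-Hochberg adjustment over all genes tested). The endothelial label was checked against 13 marker genes: 4 had a mean over 1 CPM in WT, 4 in KD and 3 in OE, and the sum over the list was 27.6 to 28.1 CPM in WT, 18.0 to 19.3 in KD and 25.1 to 29.5 in OE. Erg had 0 counts in every library, and Cdh5, Pecam1, Tie1, Vwf, Cldn5 and Emcn had at most 10, while Flt1 was at 17.2 ± 0.196 CPM in WT. Flt1 made up most of the sum in each group. Of the 5 endothelial markers tested, 3 fell and 0 rose in KD against WT, and 3 fell and 1 rose in OE. In OE the log2 fold change was 0.35 for Flt1 (edgeR adjusted p 0.00151). It was -1.99 for Tek, -1.05 for Egfl7 and -0.58 for Kdr (edgeR adjusted p 3.12e-06, 3.65e-05 and 0.0276). The 6 fibroblast markers summed to 5109 to 5676 CPM in WT, 4847 to 4911 in KD and 4038 to 4132 in OE, nearly all of it Col1a1. The defining markers of endothelium were thus at or near 0 in libraries labelled endothelial. Sums over 6 cardiomyocyte, 6 pericyte or smooth muscle and 6 leukocyte markers reached at most 3.03, 5.56 and 5.62 CPM. The part of these marker levels in the results below was not tested, and in bulk RNA fewer cells of a type cannot be told apart from less RNA per cell.

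Of the 9 Kruppel-like factors tested, 8 differed among the 3 groups at an adjusted p under 0.05 in edgeR's test of any difference, where 47.7% of all genes tested did. Klf2 was the exception. Klf4, Klf5, Klf6, Klf3 and Klf10 rose in KD, and Klf4 rose most, by 57.3%. Klf7, Klf9, Klf10 and Klf4 rose in OE while Klf6 and Klf13 fell. Klf6 was the member that fell in OE and rose in KD, and it had the widest gap between OE and KD. All of these changes were smaller than 2-fold.

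**Figure D1:**
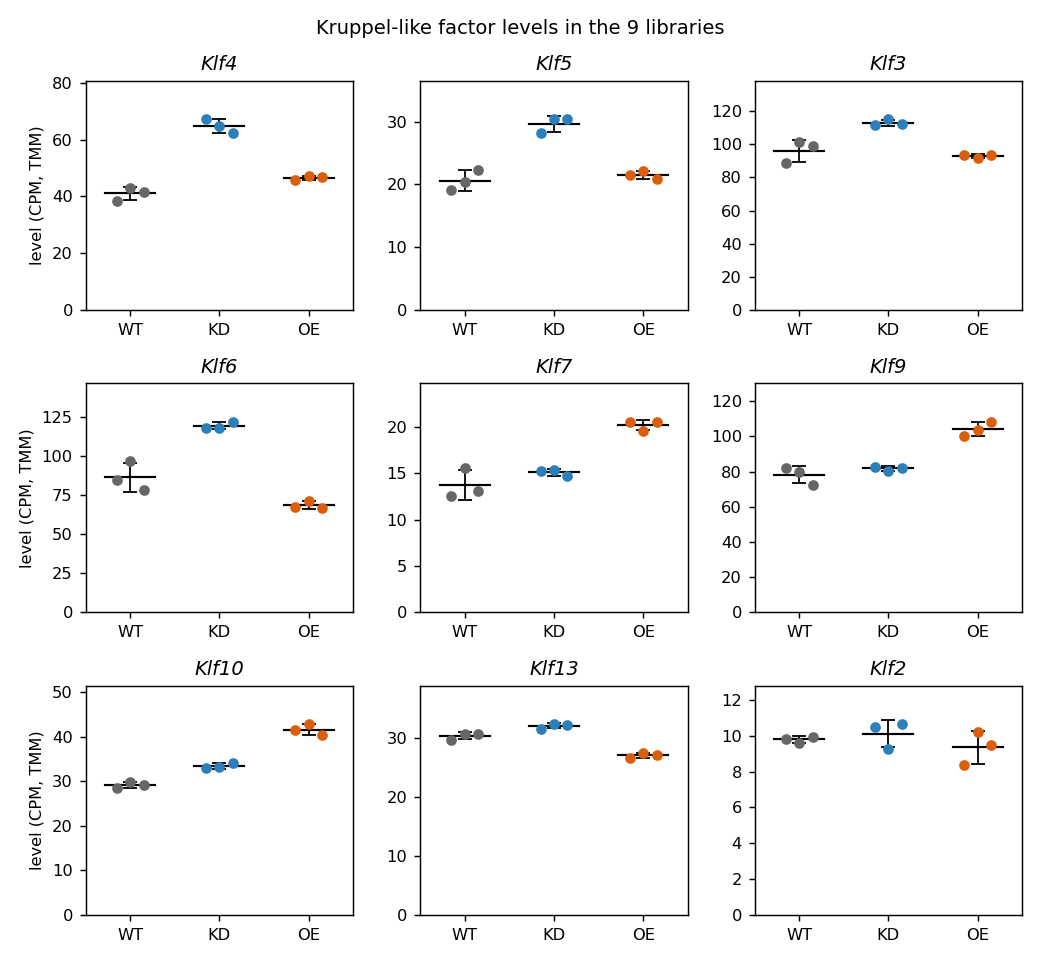
Levels of the 9 tested members in each library, in CPM with TMM factors (vertical axis, from 0), by group (WT, KD, OE). Points are libraries, lines the mean and bars the SD of 3 libraries. The KD points lie above the WT points for Klf4, Klf5, Klf3, Klf6, Klf10 and Klf13. The OE points lie above both other groups for Klf7, Klf9 and Klf10.

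Per length of annotated exon, the most abundant member was Klf6 in WT and KD and Klf9 in OE. On this scale (CPM per kb of exon) the WT order was Klf6 at 19.7 ± 2.14 (SD, n = 3), Klf9 at 16.2 ± 1.02, Klf4 at 13.5 ± 0.775, Klf3 at 8.55 ± 0.590, Klf10 at 6.99 ± 0.173, Klf2 at 5.30 ± 0.0993, Klf13 at 4.04 ± 0.0750, Klf5 at 3.96 ± 0.324, Klf7 at 1.69 ± 0.199 and Klf15 at 0.0201 ± 0.0348. Neighbours in this order had ranges that did not overlap, except Klf13 and Klf5. In KD, Klf4 at 21.3 ± 0.826 passed Klf9 at 17.0 ± 0.283 into the second place behind Klf6 at 27.2 ± 0.521, and Klf5 at 5.70 ± 0.242 drew level with Klf2 at 5.48 ± 0.418, whose range it overlapped. In OE, Klf9 led at 21.6 ± 0.851, ahead of Klf6 at 15.7 ± 0.544 and Klf4 at 15.3 ± 0.224, which overlapped each other, and Klf10 at 9.96 ± 0.292 stood above Klf3 at 8.26 ± 0.107. Klf7 was the lowest of the tested members in every group, at 1.86 ± 0.0428 in KD and 2.48 ± 0.0701 in OE. Among the 10 members, the top places in each group thus went to Klf6, Klf9 and Klf4, and Klf2 ranked 6 or 7. Klf16, a family member outside these 10, stood among them on this scale. It was at 19.3 ± 0.358 in WT, 19.7 ± 0.370 in KD and 17.7 ± 0.122 in OE.

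**Figure D2:**
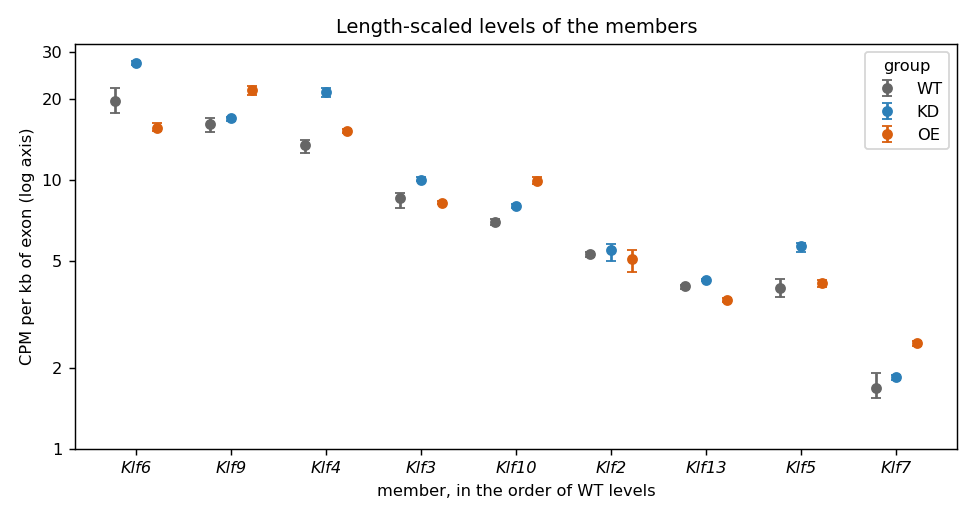
Length-scaled level (CPM per kb of exon, logarithmic vertical axis) of the 9 tested members, ordered by their WT level. Points are means of 3 libraries and bars run from the lowest to the highest library. Klf6 is highest in WT and KD, at 19.7 and 27.2, and Klf9 is highest in OE, at 21.6.

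The flow-induced pair was examined first. Klf4 (chr4:55527143-55532466, minus strand, promoter given above) encodes an activator that in endothelium restrains inflammatory and thrombotic genes. It stood at 38.5, 43.2 and 41.8 CPM in the WT libraries, at 67.2, 65.0 and 62.2 in KD and at 45.8, 47.1 and 46.9 in OE. The 3 groups did not overlap: KD was highest and OE lay between it and WT. The log2 fold change of Klf4 in KD against WT was 0.65 (SE 0.058), with an edgeR adjusted p of 2.64e-08. In OE against WT it was 0.18 (SE 0.050), with an edgeR adjusted p of 0.0140, so Klf4 was higher than WT with Zbtb46 lowered and, by less, with it raised. The rise in OE was not called with library totals alone (0.11, edgeR adjusted p 0.300), without WT replicate 1 (0.13, 0.0750) or without OE replicate 2 (0.17, 0.0511). Between OE and KD, Klf4 fell by 28.1%, which is -0.48 (SE 0.035) on the log2 scale, with an edgeR adjusted p of 3.13e-07.

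Klf2 (chr8:72319033-72321656, plus strand), the closest endothelial partner of Klf4 in function, was measured at 9.83, 9.60 and 9.96 CPM in WT. It had 10.5, 9.24 and 10.7 CPM in KD and 8.38, 10.2 and 9.51 in OE. The 3 groups overlapped. Its log2 fold changes were 0.05 (SE 0.067) in KD and -0.06 (SE 0.084) in OE against WT, and the edgeR adjusted p was 0.787 and 0.673. These rest on 368 to 571 counts per library. A difference between Klf2 and Klf4 in their response was not tested.

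Among the other activators, Klf6 showed the clearest opposite movement. Klf6 (chr13:5861482-5870394, plus strand) encodes a factor induced by injury of the vessel wall. Its levels were 84.8, 96.8 and 78.3 CPM in WT, 118, 118 and 122 in KD and 67.6, 71.5 and 67.2 in OE. All KD libraries lay above and all OE libraries below the WT libraries, and WT was the group with the widest spread. The log2 fold change of Klf6 was 0.46 (SE 0.091) in KD against WT, with an edgeR adjusted p of 1.46e-05, and -0.33 (SE 0.094) in OE against WT, with 0.000204. The same WT libraries enter both values. OE against KD, a fold change between the other groups, gave -0.80 (SE 0.033), a level 42.4% below that in KD, with an edgeR adjusted p of 1.87e-09. That adjusted p rests on a spread estimated over all 9 libraries, WT included. No other member difference passed when the test asked for more than 1.5-fold, and this difference between OE and KD did (edgeR adjusted p 0.00394).

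Klf5 (chr14:99298691-99315036, plus strand), an activator known from proliferating smooth muscle and epithelium, had 19.0, 20.3 and 22.4 CPM in WT. In KD it had 28.2, 30.4 and 30.4 CPM and in OE 21.6, 22.2 and 20.9. The KD libraries stood apart from the other 6, and WT and OE overlapped. Knockdown libraries held 44.0% more Klf5 than WT libraries, a difference of 0.53 on the log2 scale (SE 0.076, edgeR adjusted p 1.38e-05). In OE against WT its log2 fold change was 0.07 (SE 0.072, edgeR adjusted p 0.524), and in OE against KD -0.46 (SE 0.044, edgeR adjusted p 1.46e-05). Klf7 (chr1:64029447-64122282, minus strand), an activator best known from neurons, behaved the other way round. It stood at 12.6, 15.6 and 13.0 CPM in WT, 15.3, 15.3 and 14.7 in KD and 20.6, 19.5 and 20.5 in OE. The OE libraries lay above the other 6. The log2 fold change of Klf7 in OE against WT was 0.55 (SE 0.098), 46.5% higher, with an edgeR adjusted p of 2.02e-05, and OE against KD gave 0.42 (SE 0.031, edgeR adjusted p 0.000293). KD against WT gave 0.13 (SE 0.097), with an edgeR adjusted p of 0.318, which became 0.24 with an adjusted p of 0.0357 without WT replicate 2. Klf7 shares 3196 exon bases with Gm26649 on the opposite strand. That gene is absent from the count table, so its level cannot be set beside that of Klf7. The use of strand in counting is not given in the sources used here.

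Klf3 (chr5:64803388-64832901, plus strand) is the member that recruits the corepressor CtBP. It was measured at 88.6, 101 and 98.7 CPM in WT, 112, 115 and 112 in KD and 93.2, 91.5 and 93.8 in OE. KD lay above the other groups, which overlapped. Klf3 was 17.4% higher in KD than in WT (log2 fold change 0.23, SE 0.060, edgeR adjusted p 0.00147). This was not called with library totals alone, where the log2 fold change was 0.19 and the edgeR adjusted p 0.0828. OE against WT gave -0.05 (SE 0.060, edgeR adjusted p 0.449) and OE against KD -0.28 (SE 0.018, edgeR adjusted p 6.47e-05). Klf3 shares 404 exon bases with Gm20033 on the opposite strand, which had 6 to 35 counts per library against 3362 to 6019 for Klf3.

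Of the members that recruit Sin3A, Klf9 and Klf10 rose in OE and Klf13 fell, and Klf10 also passed in KD. Klf9 (chr19:23141226-23168134, plus strand), a gene induced by glucocorticoids and thyroid hormone, had 82.2, 79.8 and 72.7 CPM in WT, 82.9, 80.3 and 82.2 in KD and 100.3, 103 and 108 in OE. WT and KD overlapped and every OE library was higher. Klf9 was 33.1% higher in OE than in WT (log2 fold change 0.41, SE 0.063, edgeR adjusted p 1.23e-06) and 27.2% higher than in KD (0.35, SE 0.036, edgeR adjusted p 7.78e-06). KD against WT gave 0.07 (SE 0.055, edgeR adjusted p 0.416). Klf10 (chr15:38291463-38300706, minus strand), also known as a TGF-beta inducible early gene, was at 28.5, 29.96 and 29.1 CPM in WT, 33.0, 33.2 and 34.1 in KD and 41.6, 42.9 and 40.4 in OE. The 3 groups did not overlap, with WT lowest and OE highest. Its log2 fold change was 0.51 (SE 0.032) in OE against WT, 42.5% higher, with an edgeR adjusted p of 2.61e-07.

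In KD against WT, Klf10 had a log2 fold change of 0.19 (SE 0.025) and an edgeR adjusted p of 0.0160. That call was lost with library totals alone (0.16, edgeR adjusted p 0.196), with window medians removed (0.11, 0.220), without WT replicate 1 (0.18, 0.0538) and without KD replicate 3 (0.18, 0.0711). OE against KD gave 0.32 (SE 0.029, edgeR adjusted p 7.78e-05) for Klf10. Klf13 (chr7:63886351-63938915, minus strand), known from heart development and from the T cell chemokine Ccl5, had 29.7, 30.8 and 30.7 CPM in WT, 31.6, 32.4 and 32.3 in KD and 26.5, 27.4 and 27.2 in OE. Its 3 groups did not overlap, and the differences were small. Klf13 fell in OE against WT, with a log2 fold change of -0.17 (SE 0.021, edgeR adjusted p 0.0241). This was not called with upper-quartile factors (-0.13, edgeR adjusted p 0.0685) or without OE replicate 1 (-0.15, 0.0860), OE replicate 2 (-0.18, 0.05005) or OE replicate 3 (-0.17, 0.0506). OE against KD gave -0.25 (SE 0.018, edgeR adjusted p 0.00135) and KD against WT 0.08 (SE 0.019, edgeR adjusted p 0.384).

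Klf15 (chr6:90462576-90475238, plus strand), a regulator of metabolism in heart and skeletal muscle, was close to absent. It had 0, 10 and 0 counts in WT, 2, 5 and 2 in KD and 4, 2 and 4 in OE. A count of 0 in WT replicates 1 and 3 allows up to 0.0791 and 0.0671 CPM, taking 3 counts as the limit for counting error alone. A difference in Klf15 was not detectable at this depth, and no fold is given.

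**Figure D3:**
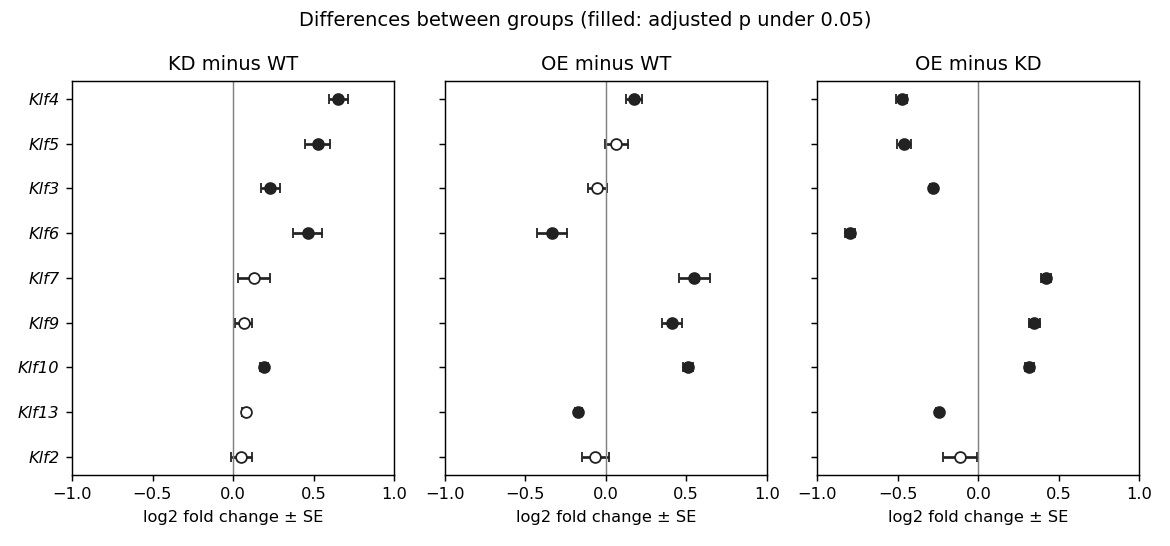
Log2 fold change of the 9 tested members in KD minus WT, OE minus WT and OE minus KD, with the SE from the spread of 3 libraries a group. Filled points passed an edgeR adjusted p of 0.05 and open points did not. In KD minus WT 5 points are filled, all above 0, and in OE minus KD Klf6 lies lowest at -0.80 and Klf7 highest at 0.42.

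Counted over the members, KD against WT gave 5 of the 9 tested that rose and 0 that fell. Over all genes tested 21.3% passed in this comparison, 11% upward and 10.4% downward, and the background includes weakly expressed genes. The median log2 fold change was 0.19 over the members and -0.0022 over all genes. KD and WT did not overlap for 6 of 9 members and for 34.7% of all genes. With library totals alone, 3 members rose and 0 fell, where 14.6% of all genes passed. The share of upward calls over all genes then went from 51.4% to 35.8%. Against a minimum fold change of 1.5, 0 members passed, where 1.62% of all genes did. At any fold change, 5 members passed with DESeq2 and 5 with limma-voom. In KD the endothelial marker sum was 18.0 to 19.3 CPM, against 27.6 to 28.1 in WT, and its part in these counts was not tested.

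In OE against WT, 6 of 9 members passed, 4 upward and 2 downward, where 36.4% of all genes passed, 17% upward and 19.5% downward. The median log2 fold change was 0.065 over the members and 0.0020 over all genes. The groups did not overlap for 6 of 9 members and for 45.1% of all genes. The upward share of calls over all genes was 46.6%, and 31.6% with library totals alone. The count ran from 4 without OE replicate 2, where 30.5% of all genes passed, to 6. Against a minimum fold change of 1.5 it was 0, where 4.68% of all genes passed. Fibroblast markers moved with this comparison: their sum was 4038 to 4132 CPM in OE and 5109 to 5676 in WT, and their part in these counts was not tested.

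OE against KD separated the members most. Here 8 of 9 passed, Klf7, Klf9 and Klf10 upward and Klf6, Klf4, Klf5, Klf3 and Klf13 downward, where 41.5% of all genes passed, 19.4% upward and 22.1% downward. The groups did not overlap for 8 of 9 members and for 55.4% of all genes. The median log2 fold change was -0.25 over the members and 0.011 over all genes. Over all genes 46.8% of the calls were upward, and 57.6% with upper-quartile factors. The 8 calls were found in each of the 9 fits that left out a library. Against a minimum fold change of 1.5 the count was 1, where 7.85% of all genes passed. The spread between WT libraries, as a coefficient of variation, was wider than that within KD and within OE for 7 of the 9 tested members.

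The family has 7 further members in the table, of which 4 were tested. Klf12, a CtBP-recruiting repressor that lies near Klf5 on chromosome 14 (chr14:99870632-100284679, minus strand), had 2.90, 5.78 and 4.32 CPM in WT, 4.89, 4.82 and 5.18 in KD and 2.49, 2.99 and 2.53 in OE. It fell in OE against WT with a log2 fold change of -0.71 (SE 0.30, edgeR adjusted p 0.00624), although the groups overlapped, and without WT replicate 2 the change was -0.45 with an adjusted p of 0.0607. OE against KD gave -0.89 (SE 0.088, edgeR adjusted p 0.000792). Klf16, a Sin3A-recruiting repressor at 51.6 ± 0.958 CPM in WT (SD, n = 3), had log2 fold changes of -0.12 in OE against WT (SE 0.016, edgeR adjusted p 0.0555) and -0.15 in OE against KD (SE 0.017, edgeR adjusted p 0.0156). The first of these passed without WT replicate 2 (edgeR adjusted p 0.0359), with ribosomal RNA left out of the totals (0.0440), with at least 10 counts in every library (0.0446) and with window medians removed (0.0220). Klf11, at 8.08 ± 0.552 CPM in WT, 7.98 ± 0.412 in KD and 8.59 ± 0.434 in OE, passed in no comparison, and neither did the erythroid factor Klf1 at 2 to 16 counts per library. Klf8, Klf14 and Klf17 had at most 2 counts in any library. In all, 0 of the 4 tested passed between KD and WT, 1 between OE and WT and 2 between OE and KD. Over all genes tested, 21.3%, 36.4% and 41.5% passed in these comparisons. Between OE and WT the count was 2 with ribosomal RNA left out, with at least 10 counts or with window medians removed. In those fits 33.4% to 41.1% of all genes passed. The Klf16 call between OE and KD was lost with upper-quartile factors (-0.09, edgeR adjusted p 0.157) and with library totals alone (-0.18, 0.0535). It was also lost without KD replicate 1 (-0.14, 0.0567) or without OE replicate 2 (-0.15, 0.0503).

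The Sp factors, the nearest relatives of the family, bind the same GC boxes. Of 6 tested, 0 passed in the knockdown comparison, 2 between OE and WT and 1 between OE and KD, where all genes gave 21.3%, 36.4% and 41.5%. The knockdown count was 1 without WT replicate 1 and 1 without WT replicate 2, where all genes gave 17.3% and 27.1%. The count between OE and KD was 2 with upper-quartile factors, with at least 10 counts in every library and without WT replicate 1 or 2. It was 3 with only the groups compared or without WT replicate 3. Over all genes 41% to 49.8% passed in these fits. Sp1, the ubiquitous member, went from 113 ± 8.86 CPM in WT to 125 ± 1.38 in OE (log2 fold change 0.15, SE 0.065, edgeR adjusted p 0.0258), a call lost without WT replicate 1 or 3, without any 1 of the OE libraries, with only the groups compared, with window medians removed and with library totals alone (edgeR adjusted p 0.0520 to 0.431). Its difference between OE and KD was 0.12 (SE 0.023, edgeR adjusted p 0.0579) and passed with upper-quartile factors (0.18, 0.00276), with at least 10 counts in every library (0.12, 0.0479), with only the groups compared (0.11, 0.00237) and without WT replicate 2 (0.11, 0.0132) or WT replicate 3 (0.11, 0.0282). Sp4 went from 5.66 ± 0.803 to 3.76 ± 0.499 CPM (-0.60, SE 0.16, edgeR adjusted p 0.00246). Sp2, at 47.5 CPM in WT, Sp3, at 121 CPM, and Sp9, at 2.31 CPM, passed in no comparison, although Sp3 passed in KD against WT without WT replicate 2 (0.18, edgeR adjusted p 0.00122) and Sp9 in OE against KD without WT replicate 1 (0.72, 0.0109) or WT replicate 3 (0.72, 0.0215), and with only the groups compared (0.72, 0.000317). The median log2 fold change of the Sp factors was -0.03 in KD and -0.0098 in OE against WT.

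Genes that lie upstream of Klf2 and Klf4 in flow signalling were counted next. In KD, 5 of 17 tested rose against WT (Krit1, Mef2c, Piezo1, Map3k3 and Rap1b) and 3 fell (Mapk7, Hdac5 and Heg1). These calls were 47.1% of the list, against 21.3% of all genes, and the median log2 fold change was 0.14. The list mixes activators and brakes of the pathway, so a median over it gives no direction for the pathway. Without WT replicate 2 the count was 14, with 9 up and 5 down, where 27.1% of all genes passed. Heg1, the endothelial receptor that anchors the cerebral cavernous malformation complex, a brake on this pathway, went from 303 ± 24.2 CPM in WT to 193 ± 0.739 in KD and 377 ± 8.27 in OE. Its log2 fold change was -0.65 in KD (SE 0.068, edgeR adjusted p 4.24e-09) and 0.32 in OE (SE 0.070, edgeR adjusted p 1.95e-05). Piezo1, a mechanically gated ion channel, moved the opposite way, from 538 ± 54.5 CPM in WT to 665 ± 36.4 in KD (0.31, SE 0.096, edgeR adjusted p 0.00128) and 347 ± 3.16 in OE (-0.63, SE 0.085, edgeR adjusted p 3.01e-07). The kinase gene Map3k3 rose in KD by 0.30 on the log2 scale (SE 0.021, edgeR adjusted p 3.88e-05), and the class II deacetylase gene Hdac5, a repressor of Mef2, fell in KD with a log2 fold change of -0.26 (SE 0.042, edgeR adjusted p 0.000234) and in OE with -0.13 (SE 0.040, edgeR adjusted p 0.0280). Mef2c itself rose in KD from 2.62 ± 0.493 to 3.98 ± 0.389 CPM (0.60, SE 0.17, edgeR adjusted p 0.0190). That call was lost with window medians removed and when WT replicate 1, KD replicate 2 or KD replicate 3 was left out (edgeR adjusted p 0.0722 to 0.0993). In OE, Mef2c was at 3.46 ± 0.686 CPM (0.40 against WT, SE 0.22, edgeR adjusted p 0.0927). This passed with window medians removed (0.69, 0.00514) and without WT replicate 3 (0.54, 0.0312). OE against KD gave -0.20 for Mef2c (SE 0.18, edgeR adjusted p 0.382).

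In OE, 2 of the 17 flow genes rose against WT (Map3k2 and Heg1) and 4 fell (Ccm2, Hdac5, Piezo1 and Map2k5), with a median of 0.043. These calls were 35.3% of the list, near the 36.4% of all genes, and OE against KD gave 3 up and 5 down, 47.1% against 41.5%. Ccm2, which encodes a scaffold of the cavernous malformation complex, fell from 67.1 ± 5.69 CPM in WT to 43.6 ± 1.64 in OE (log2 fold change -0.62, SE 0.078, edgeR adjusted p 3.19e-08). With window medians removed its change was -0.12 (edgeR adjusted p 0.0889).

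The known endothelial targets of Klf2 and Klf4 were mostly weak in these cells. Of 10 genes that these factors induce, 8 were tested, and 1 rose and 0 fell in KD against WT while 1 rose and 2 fell in OE, with medians of -0.26 and 0.12. The shares called were 12.5% and 37.5%, against 21.3% and 36.4% of all genes. Adamts5, a matrix protease, was the gene that rose in KD, from 82.2 ± 5.79 to 116 ± 5.55 CPM (log2 fold change 0.49, SE 0.072, edgeR adjusted p 1.13e-06). It fell in OE, to 61.9 ± 2.39 CPM (-0.41, SE 0.068, edgeR adjusted p 4.32e-06). Its relative Adamts4 rose in OE from 5.43 ± 0.260 to 7.54 ± 0.698 CPM (0.48, SE 0.088, edgeR adjusted p 0.00824). Nos3, the endothelial nitric oxide synthase and a classical target, was at 0.482 ± 0.209 CPM in WT, 0.380 ± 0.115 in KD and 0.722 ± 0.0293 in OE, with edgeR adjusted p of 0.604 and 0.287 against WT. OE against KD gave 0.92 for Nos3 (SE 0.23, edgeR adjusted p 0.0700), on 13 to 35 counts per library. It passed with upper-quartile factors (0.0495), with at least 10 counts in every library (0.0407) and with only the groups compared (0.0496). Thbd, which encodes thrombomodulin, had 2 to 16 counts per library and was not tested. Ptgds, at 0.772 ± 0.494 CPM in WT and 0.242 ± 0.0913 in OE, had a log2 fold change of -1.64 (SE 0.57, edgeR adjusted p 0.00792), which lost its call without WT replicate 1 (-1.06, edgeR adjusted p 0.0966). Plpp3, a lipid phosphatase gene, passed in no comparison (-0.34 in KD, SE 0.13, edgeR adjusted p 0.149). S1pr1, the sphingosine 1-phosphate receptor, had 0.215 ± 0.120 CPM in WT and 0.599 ± 0.0760 in OE (1.42, SE 0.37, edgeR adjusted p 0.0505), and it was higher in OE than in KD (2.14, SE 0.62, edgeR adjusted p 0.00618). With window medians removed, 5 genes of this list passed in OE, 1 up and 4 down, where 33.4% of all genes passed.

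Of 11 genes that Klf2 or Klf4 lower in endothelium, 9 were tested. In KD, 1 rose and 2 fell, with a median of 0.020, and in OE 1 rose and 4 fell (Vcam1, Ccl2, Kdr and Il6), with a median of -0.12. The shares called were 33.3% and 55.6%, against 21.3% and 36.4% of all genes. Vcam1, a leukocyte adhesion molecule, fell in OE from 72.7 ± 6.0 to 24.6 ± 1.06 CPM (log2 fold change -1.57, SE 0.076, edgeR adjusted p 2.87e-14) and stood at 74.6 ± 1.35 CPM in KD. Ccl2, a monocyte chemokine, fell in both, from 40.7 ± 3.98 CPM to 30.3 ± 3.29 in KD (-0.42, SE 0.12, edgeR adjusted p 0.000498) and 30.3 ± 1.09 in OE (-0.42, SE 0.085, edgeR adjusted p 0.000220). Kdr, the main VEGF receptor, fell from 2.64 ± 0.252 CPM to 1.40 ± 0.254 in KD (-0.91, SE 0.16, edgeR adjusted p 0.00261). F3, which encodes tissue factor, rose in KD from 23.9 ± 1.56 to 28.3 ± 1.52 CPM (0.24, SE 0.071, edgeR adjusted p 0.0201), a call lost with library totals alone and when WT replicate 1, KD replicate 1 or KD replicate 2 was left out (edgeR adjusted p 0.0729 to 0.130). Without OE replicate 1, 3 of the list passed in OE, where 30.1% of all genes passed.

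Of 13 cofactors and ubiquitin ligases of the family, 2 rose, 2 fell and 9 did not pass in KD against WT (30.8% called, against 21.3% of all genes). In OE against WT, 5 rose and 2 fell (53.8%, against 36.4%), and OE against KD gave 5 up and 5 down (76.9%, against 41.5%). Hdac1, a deacetylase of Sin3A complexes, went from 109 ± 3.21 CPM in WT to 79.1 ± 2.68 in KD (log2 fold change -0.46, SE 0.037, edgeR adjusted p 2.19e-07) and 144 ± 3.26 in OE (0.41, SE 0.031, edgeR adjusted p 2.29e-07). Fhl3, a cofactor of Klf3, went from 19.9 ± 1.46 to 15.7 ± 0.461 CPM in KD (-0.34, SE 0.067, edgeR adjusted p 0.00190) and 25.6 ± 0.804 in OE (0.37, SE 0.068, edgeR adjusted p 0.000340). With window medians removed, the OE changes of Hdac1 and Fhl3 were 0.07 and 0.03 and no longer passed (edgeR adjusted p 0.220 and 0.766). Wwp1, a ligase that marks Klf2 and Klf5 for degradation, rose in KD from 64.3 ± 4.44 to 80.9 ± 1.14 CPM (0.33, SE 0.059, edgeR adjusted p 0.000128), and the acetyltransferase gene Kat2b rose by 0.48 on that scale (SE 0.11, edgeR adjusted p 8.84e-05). Crebbp, another acetyltransferase gene, rose in OE by 0.31 on the log2 scale (SE 0.055, edgeR adjusted p 3.39e-05).

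**Figure D4:**
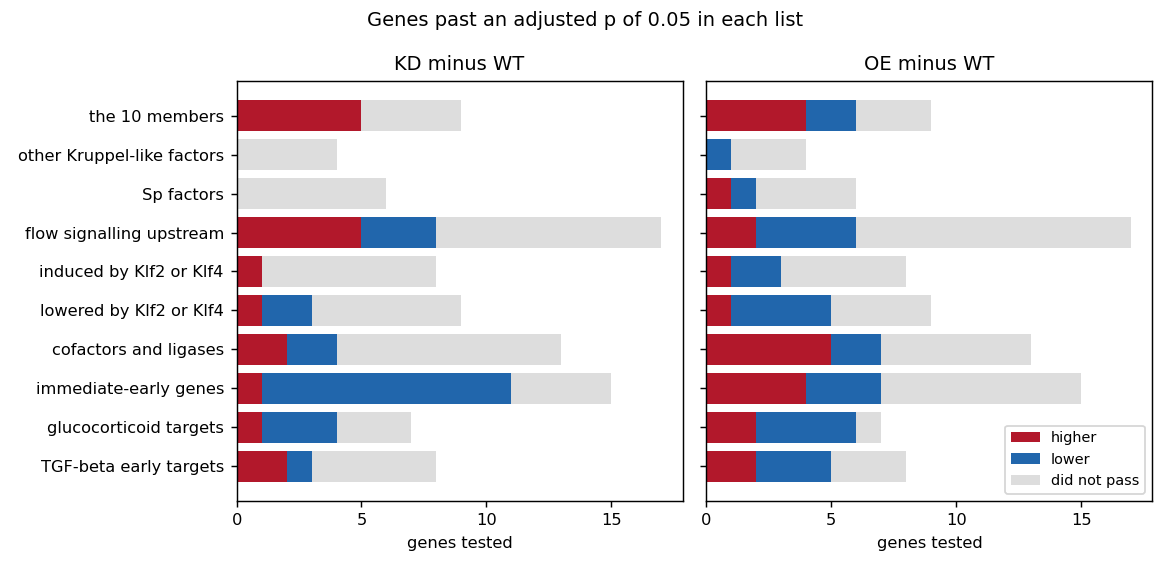
Number of genes in each list that were higher (red), lower (blue) or did not pass (grey) at an edgeR adjusted p of 0.05, in KD minus WT and OE minus WT. The horizontal axis counts the genes tested in the list. The members have 5 higher and 0 lower in KD, and the immediate-early genes 1 higher and 10 lower.

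Several members are themselves induced within minutes to hours by serum, hormones or TGF-beta, so the genes of those responses were counted. Of 15 immediate-early genes, Myc rose and 10 fell in KD against WT, with a median log2 fold change of -0.75. Jun went from 44.8 ± 4.51 to 31.4 ± 1.55 CPM (-0.52, SE 0.095, edgeR adjusted p 1.06e-05), Ier2 from 40.6 ± 4.19 to 19.6 ± 1.98 (-1.05, SE 0.12, edgeR adjusted p 4.92e-05) and Btg2 from 13.7 ± 1.72 to 6.79 ± 0.899 (-1.02, SE 0.15, edgeR adjusted p 4.63e-05). The share called was 73.3%, against 21.3% of all genes. In OE, 4 rose and 3 fell against WT (46.7%, against 36.4%). Without OE replicate 2 the count was 12, with 4 up and 8 down, where 30.5% of all genes passed. Fosl1 rose in OE from 2.24 ± 0.175 to 6.37 ± 0.248 CPM (1.51, SE 0.071, edgeR adjusted p 1.84e-07). Zfp36, which encodes an RNA-decay factor, fell in both, with log2 fold changes of -0.54 in KD (SE 0.078, edgeR adjusted p 0.000145) and -0.56 in OE (SE 0.13, edgeR adjusted p 4.14e-05). Ier3 rose in OE by 0.26 on that scale (SE 0.057, edgeR adjusted p 0.000215). OE against KD gave 10 up and 0 down (66.7%, against 41.5%). The part of this response in the levels of the members was not tested.

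Among 7 glucocorticoid receptor genes tested, which include the receptor and the kinds of target that Klf9 belongs to, 1 rose and 3 fell in KD, 2 rose and 4 fell in OE, both set against WT, and OE against KD gave 3 up and 3 down. The shares called were 57.1%, 85.7% and 85.7%, against 21.3%, 36.4% and 41.5% of all genes. The receptor gene Nr3c1 went from 82.1 ± 8.32 CPM in WT to 107 ± 1.32 in KD (log2 fold change 0.38, SE 0.083, edgeR adjusted p 5.03e-05) and 69.7 ± 1.99 in OE (-0.24, SE 0.086, edgeR adjusted p 0.00259). Its targets Per1 and Sgk1 parted in OE, where Per1 had a log2 fold change of 0.40 (SE 0.062, edgeR adjusted p 1.04e-05) and Sgk1 one of -0.76 (SE 0.12, edgeR adjusted p 3.33e-07). Dusp1, a MAP kinase phosphatase gene, fell in KD (-0.48, SE 0.063, edgeR adjusted p 6.68e-05) and in OE (-0.51, SE 0.11, edgeR adjusted p 1.24e-05). Fkbp5 fell in KD (-0.21, SE 0.045, edgeR adjusted p 0.00274), and Errfi1 fell in KD (-0.33, SE 0.11, edgeR adjusted p 0.0133) and rose in OE (0.60, SE 0.081, edgeR adjusted p 1.81e-05).

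Of 8 TGF-beta early genes, the group that Klf10 is named for, 2 rose and 1 fell in KD (37.5%, against 21.3% of all genes) and 2 rose and 3 fell in OE (62.5%, against 36.4%). The part of this response in the level of Klf10 was not tested. Ccn2, a matricellular target, fell in OE from 154 ± 11.7 to 84.0 ± 6.12 CPM (-0.87, SE 0.087, edgeR adjusted p 2.43e-09). In KD, Ccn2 rose by 0.21 on the log2 scale (SE 0.076, edgeR adjusted p 0.0180), Smad7 by 0.19 (SE 0.086, 0.0379), and Id1 had -0.16 (SE 0.038, 0.0146). The Id1 call was lost without KD replicate 1 (edgeR adjusted p 0.0928), without KD replicate 2 (0.0648) and with library totals alone (0.0508). Besides the minimum of 1.5-fold, which none of the KD changes in this list passed, the Smad7 call was lost in 9 alternatives (edgeR adjusted p 0.0533 to 0.192): upper-quartile factors, library totals alone, only the groups compared, window medians removed, and without WT replicate 3, OE replicate 1 or any 1 of the KD libraries. That of Ccn2 was lost in 4, with library totals alone and without WT replicate 1, WT replicate 3 or KD replicate 3 (0.0840 to 0.186). Id1 had -0.17 in OE (SE 0.049, edgeR adjusted p 0.00605) and -0.13 without OE replicate 3 (0.0506), and Tgif1 rose in OE against KD (0.30, SE 0.053, edgeR adjusted p 0.00581). The 3 KD calls of this list became 0 with library totals alone, and 1 without WT replicate 3 or without any 1 of the KD libraries. Over all genes those fits called 14.6%, 18.5% and 14.5% to 15.8%. Without OE replicate 3, 3 passed in OE, and without KD replicate 1, 3 passed in OE against KD, where 5 did with all libraries. All genes gave 30.7% and 34.9% in those fits.

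For each member that differed among the groups, the genes with the most similar pattern over the 9 libraries were listed by the root mean square difference of centred log2 CPM, among 12880 genes. The nearest genes to Klf4 were Sel1l at 0.052, Fnip1 at 0.072 and Taf4b at 0.075, and the nearest member was Klf5 at 0.092. Klf5 had Mfhas1 at 0.071, Ficd at 0.074 and Dnajb11 at 0.080. Nearest to Klf6 were Dipk2a at 0.047, Ipo11 at 0.049 and Zfyve16 at 0.050, and its nearest member, Klf5, was at 0.21. Klf7 had Cenpe at 0.027, Plekha2 at 0.045 and Blm at 0.050. Klf9 had Acsl3 at 0.032, Mrps9 at 0.035 and Spag5 at 0.040, and Klf10 had Nop56 at 0.028, Abcb1b at 0.039 and Celf1 at 0.045. Klf9 and Klf10 were each other's nearest member, at 0.086, and Klf3 and Klf13 likewise, at 0.078. Klf3 had Bptf at 0.030, Mtmr6 at 0.035 and Frs2 at 0.035, and Klf13 had Trim35 at 0.021, Gak at 0.022 and Eef1a1 at 0.022. The distance to the median gene was between 0.20 and 0.38, depending on the member, and small distances are easier to reach for members that vary little.

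Genome position was also looked at, since neighbouring genes can shift together. In the 20 Mb windows that hold the tested members, the median log2 fold change of all genes was at most 0.11 in size in KD, for the Klf6 window, and 0.073 in OE, for the Klf9 window. In OE against KD it was -0.17 for the Klf6 window, the farthest from 0 among these windows. With its window median subtracted, Klf6 had 0.36 in KD, -0.27 in OE and -0.62 in OE against KD, where it was -0.80 before, Klf4 0.62 in KD, Klf9 0.34 in OE and Klf10 0.44 in OE.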

How the data were processed

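RNA from 9 MCEC libraries was sequenced as paired reads after poly-A selection, per the labels' protocols. The values deposited by the authors are raw counts, 1 column a library and 1 row an Ensembl gene: they are whole numbers whose totals differ. The builds GRCm38 and mm10 are named in the submitters' processing notes; the aligner, the counter, its use of strand and the annotation release are not given in the sources used here. The table's 55774 rows were merged to 55487 genes, since some genes appear on several rows with identical counts. All columns matched 1 sample each by name, with 0 left over. Library totals are given in the report, and they limit the precision of weakly expressed genes.

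Genes were filtered with filterByExpr by group and scaled with TMM. All 9 libraries entered 1 quasi-likelihood fit in edgeR 4.0.16 (limma 3.58.1, R 4.3.3), with Benjamini-Hochberg adjustment over 16955 genes and a threshold of 0.05. Standard errors use the spread of log2 CPM within groups (prior count 2). With 3 libraries a group, the smallest two-sided p of an exact permutation test is 0.1. Exon lengths and positions are from GENCODE M21 (GRCm38), and promoters from RefSeq. Windows are 20 Mb long with at least 10 tested genes. Fits were tested on simulated data. Promoters and figures were handled in Python 3.11.15 (matplotlib 3.10.9, pandas 2.3.3). Alternatives were DESeq2 1.42.0, limma-voom, other scalings and filters, only the groups compared, a replicate block, a minimum fold change, window medians removed and each library left out.

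The members and gene lists were chosen with earlier results of these data known. Named genes were Zbtb46, all family members, the 3 genes of smallest p per list and comparison, Nos3, Thbd, Mef2c and the 3 genes nearest to each member. Krit1, Rap1b, Mapk7, Map3k2, Map2k5, Il6, Myc and single marker genes were named after their values were seen. Of the genes that the rule names, 1 is not reported here.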

Additional observations from a re-analysis of the deposited data

How the results depend on the processing

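The members that passed numbered 5 for KD against WT, 6 for OE against WT and 8 for OE against KD. Of 21 alternatives, 19, 20 and 20 kept these counts to within 1.5 times. The exceptions were scaling by library totals alone, with 3 members for KD against WT, and requiring more than 1.5-fold, with 0, 0 and 1 members. Over all genes, library totals alone called 14.6% for KD against WT, and the 1.5-fold minimum called 1.62%, 4.68% and 7.85%. Leaving out 1 library gave 4 to 6, 4 to 6 and 8 members. All genes gave 14.5% to 27.1%, 30.1% to 37.1% and 34.9% to 43.6% in those fits. Over Zbtb46 and the tested members, 597 of the single values kept their direction and side of the threshold, 31 lost a call, 1 gained one and 1 changed sign; except at the 1.5-fold minimum, the cause of lost calls was not tested.

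Signs changed for differences that had not passed. Without 1 library, the log2 fold change of Klf2 in OE against WT ran from -0.13 to 0.011. In KD against WT, Klf11 ran from -0.061 to 0.039, Klf12 from -0.031 to 0.45, Sp4 from -0.18 to 0.030 and Nos3 from -0.62 to 0.054. In OE against KD, Klf1 ran from -0.37 to 0.48, and it was -0.023 with library totals alone, -0.0031 without ribosomal RNA in the totals and -0.046 with window medians removed. Klf16 in KD was -0.0059 with library totals alone, and Mef2c in OE against KD was 0.25 with window medians removed.

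No pairing by replicate number was seen: deviations from the group means correlated at -0.042 to 0.049 between same-numbered libraries and -0.061 to 0.042 between others. With 3 libraries a group, such a check cannot exclude cultures or preparations shared between groups. A replicate block left the counts at 5, 6 and 8. Depth limited Klf15, Klf8, Klf14, Klf17 and Thbd, which had too few counts to be tested. Where 1 of 3 libraries was left out, the other 2 were assumed to vary like the rest.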

Other observations

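Summed over the 10 members on the scale of CPM per kb of exon, Klf6 held 24.6% of the total in WT, 27.0% in KD and 18.2% in OE. Klf9 held 20.3%, 16.8% and 25.1%, and Klf4 16.9%, 21.1% and 17.8%. The share of Klf2 was 6.64%, 5.44% and 5.88%. These are means over 3 libraries and were not tested.

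The members differed in how tightly the libraries of a group agreed. Klf13 had a coefficient of variation of 1.86% in WT, 1.27% in KD and 1.66% in OE. In WT, Klf7 reached 11.8% and Klf6 10.9%, against 2.31% and 1.91% in KD. For both genes the highest WT value was that of replicate 2, the deepest library, which also had the lowest share of ribosomal RNA, 7.44%. The same held for Klf3, Klf4, Klf10 and Klf13, but not for Klf2, Klf5 and Klf9. The part of depth or ribosomal RNA in the WT spread was not tested.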
